A study of Saccharomyces cerevisiae with 15 samples.

Results

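The seripauperin (PAU) genes form a large family of near-identical copies in budding yeast (Saccharomyces cerevisiae), and 7 of them were followed here through 15 RNA sequencing libraries. The 7 genes are PAU1 (YJL223C), PAU2 (YEL049W), PAU4 (YLR461W), PAU5 (YFL020C), PAU6 (YNR076W), PAU7 (YAR020C) and PAU8 (YAL068C). They were taken by their systematic names from a table of 6659 entries, which also holds 17 other PAU genes, so the family as measured has 24 members. Copies with long identical stretches share sequencing reads, and how far each value belongs to 1 gene is therefore described before the values.

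The libraries came from haploid strains of the BY4741/2 background (his-leu-ura-), grown in rich glucose medium to mid-log phase. Total RNA was extracted with hot phenol and depleted of ribosomal RNA. The 11 genotypes were the wild type, deletions of htz1, swr1, xrn1 or upf1, the pairs htz1 xrn1, swr1 xrn1, htz1 upf1 and swr1 upf1, and prp43 DAmP without or with deletion of htz1. HTZ1 encodes the histone variant H2A.Z, and SWR1 the ATPase that exchanges it into nucleosomes. XRN1 encodes the cytoplasmic exonuclease that degrades RNA from its 5′ end. UPF1, listed in the table as NAM7, encodes the helicase of nonsense-mediated decay, the pathway that removes RNAs with an early stop codon. PRP43 encodes a helicase that takes the spent spliceosome apart, and DAmP names an allele built to lower the mRNA of an essential gene. The wild type, htz1, xrn1 and upf1 had 2 libraries each, and the other 7 genotypes had 1. The labels describe 1 to 2 independent preparations per genotype and do not say whether these were separate cultures, so p-values measure the spread between these libraries, which may be technical. Each library is a bulk culture, so a rise in most cells and a larger rise in a few cannot be told apart.

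Seripauperins are small, serine-poor relatives of the TIR and DAN mannoproteins, which are attached to the cell wall. Many PAU genes lie beside chromosome ends, where genes can be silenced, and a few lie in chromosome interiors. In the textbook account the family is kept low by oxygen and heme, through repressors such as Rox1 and Mot3, and is switched on when oxygen is scarce. The transcription factor Upc2, which senses sterol shortage, then activates the DAN, TIR and PAU genes through short promoter elements.

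PAU2, PAU5 and PAU7 were interior genes, 63.7, 99.2 and 53.2 kb from the nearest chromosome end in the R64 assembly, the same build as the sacCer3 genome named for the data. PAU1, PAU4, PAU6 and PAU8 lay 8.78, 14.9, 2.05 and 1.81 kb from an end. Each gene is a single exon that overlaps no other annotated gene. The genes span chrX:8776-9138 (PAU1, minus strand), chrV:63728-64090 (PAU2, plus), chrXII:1062919-1063281 (PAU4, plus), chrVI:99231-99599 (PAU5, minus), chrXIV:781918-782280 (PAU6, plus), chrI:176856-177023 (PAU7, minus) and chrI:1807-2169 (PAU8, minus). The first 60 bases of each coding sequence show how alike the copies are. They are written 5′ to 3′ on the coding strand, with capitals where a base differs from the one most common among the 7 genes at that position.
PAU2, chrV:63728-63787, plus strand: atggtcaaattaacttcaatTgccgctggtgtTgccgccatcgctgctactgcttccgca
PAU5, chrVI:99540-99599, minus strand: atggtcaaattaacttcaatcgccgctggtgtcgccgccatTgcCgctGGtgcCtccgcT
PAU7, chrI:176964-177023, minus strand: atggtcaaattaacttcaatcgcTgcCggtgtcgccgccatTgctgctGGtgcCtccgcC
PAU6, chrXIV:781918-781977, plus strand: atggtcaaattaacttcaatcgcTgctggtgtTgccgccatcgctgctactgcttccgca
PAU4, chrXII:1062919-1062978, plus strand: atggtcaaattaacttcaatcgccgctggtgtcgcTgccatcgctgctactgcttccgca
PAU1, chrX:9079-9138, minus strand: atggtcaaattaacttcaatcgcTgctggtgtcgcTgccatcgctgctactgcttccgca
PAU8, chrI:2110-2169, minus strand: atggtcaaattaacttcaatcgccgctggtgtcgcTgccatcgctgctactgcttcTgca
PAU5 and PAU7 carried 6 and 7 differences in this window and shared most of them, and the other 5 genes carried 1 or 2 each.

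Over the whole coding sequence PAU5 stood 86.2 to 87.9% identical to PAU1, PAU2, PAU4, PAU6 and PAU8, and those 5 genes were 94.5 to 97.8% identical to each other. PAU7 was closest to PAU5, with 95.2% identity over its 168 bases. PAU7 is annotated with 55 residues, while PAU5 has 122 and the other 5 have 120. The window around the end of the PAU7 reading frame shows what sets the genes apart. It covers positions 139 to 174, counted from the A of the start codon, with capitals where PAU5 and PAU7 differ.
PAU5, chrVI:99426-99461, minus strand: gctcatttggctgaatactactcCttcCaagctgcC
PAU7, chrI:176850-176885, minus strand: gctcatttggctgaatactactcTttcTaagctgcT
The difference C166T, with the PAU5 base first, turns a CAA codon of PAU5 into the stop codon TAA of PAU7, at codon 56. Past that codon the genome continued in the frame of PAU5 to a stop at codon 123, with 97.0% identity over the next 201 bases. The reference PAU7 is thus a PAU5-like frame with an early stop codon, and the deposited level covers the part before it.

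The share of a gene's 50-base stretches that occur at 1 place in the genome measures how much of its level reads could assign without doubt. That share was 100% for PAU7, 75.3% for PAU5 and 65.0% for PAU2. It was 48.1% for PAU8, 37.9% for PAU4 and 0% for both PAU6 and PAU1. The coding sequence of PAU1 was identical to that of PAU14, and the recovered read numbers of the pair were equal in 15 of 15 libraries. The coding sequence of PAU6 was identical to that of PAU18, with unequal read numbers in each library. The values of PAU1 and PAU6 are therefore values of shared sequence, and neither gene can be told apart from its copy.

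Promoters were searched on both strands for TCGTATA, the sterol element bound by Upc2, and for TCGTTNAG, the core of the AR1 element of anaerobic genes. The bases 300 to 151 before the start codon are shown for the 3 interior genes, for PAU4 with its AR1 match, and for PAU6 as a gene near an end with neither. Capitals mark matches, and TATACGA is TCGTATA read on the other strand.
PAU2, chrV:63428-63577, plus strand: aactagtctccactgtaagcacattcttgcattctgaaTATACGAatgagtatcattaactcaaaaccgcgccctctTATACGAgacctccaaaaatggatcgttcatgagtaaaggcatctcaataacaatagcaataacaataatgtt
PAU5, chrVI:99750-99899, minus strand: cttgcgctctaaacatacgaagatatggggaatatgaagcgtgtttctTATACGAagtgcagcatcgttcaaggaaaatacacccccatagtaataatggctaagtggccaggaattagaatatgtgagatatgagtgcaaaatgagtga
PAU7, chrI:177174-177323, minus strand: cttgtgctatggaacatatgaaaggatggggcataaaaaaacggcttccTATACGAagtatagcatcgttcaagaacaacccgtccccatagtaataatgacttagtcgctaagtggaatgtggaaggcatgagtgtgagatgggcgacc
PAU4, chrXII:1062619-1062768, plus strand: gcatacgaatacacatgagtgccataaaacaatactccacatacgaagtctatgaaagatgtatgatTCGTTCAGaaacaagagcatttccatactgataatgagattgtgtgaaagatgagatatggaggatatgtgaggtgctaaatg
PAU6, chrXIV:781618-781767, plus strand: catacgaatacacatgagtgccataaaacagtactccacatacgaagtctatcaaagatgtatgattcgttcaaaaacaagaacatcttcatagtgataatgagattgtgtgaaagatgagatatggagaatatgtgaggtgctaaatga
TCGTATA was found in the 300 bases before PAU2, which held 2 copies, PAU5 and PAU7, and in none of the windows of PAU1, PAU4, PAU6 and PAU8. It occurred in 277 of 6001 promoter windows of that length (4.62%) and in 7 of the 24 PAU windows. TCGTTNAG was found before PAU4 and PAU8, in 164 of all windows (2.73%) and in 9 of the 24. In PAU5 and PAU7 the element stood at nearly the same place, 252 to 246 and 251 to 245 bases before the start codon. A match is a string of letters and not a measured binding site.

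Levels are given as RPKM, reads scaled by gene length and by library size, which can be compared between genes. The median over the 15 libraries was 16.6 RPKM for PAU7, 16.2 for PAU6 and 14.97 for PAU2. It was 3.75 for PAU5, 0.582 for PAU4, 0.409 for PAU1 and 0.102 for PAU8. The first 3 could not be ranked, since PAU7 was above PAU6 in 7 of 15 libraries and PAU6 above PAU2 in 10. PAU2 was above PAU5 in 14 libraries and PAU5 above PAU4 in 13. PAU4 and PAU1 changed places, with PAU4 higher in 8 libraries. The family was low in this medium: 28.2% of the table's genes had a lower mean than PAU6, the highest by mean, and 1.01% had a lower mean than PAU8.

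**Figure D1:**
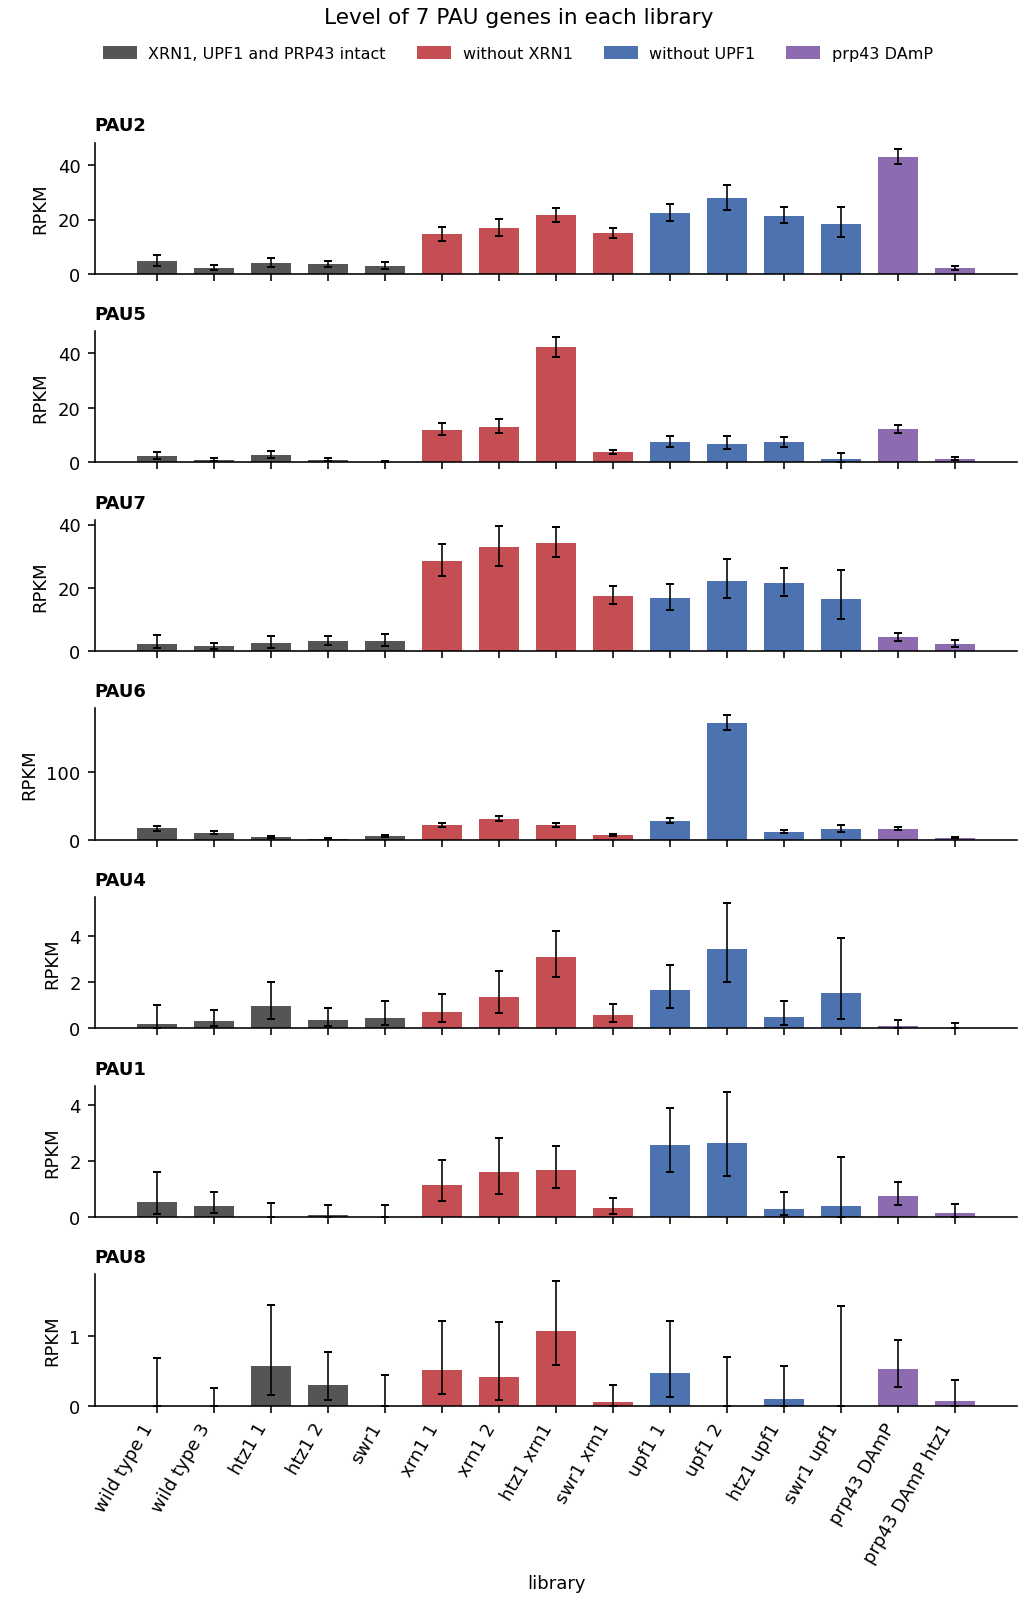
Level of the 7 PAU genes in each of the 15 libraries (RPKM, bars from 0, a separate scale per gene), with 95% exact Poisson intervals that cover counting error only. Libraries without XRN1 or UPF1 show PAU2 at 14.6 to 27.8 RPKM against 2.25 to 4.60 in the 5 libraries with XRN1, UPF1 and PRP43 intact.

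The numbers of reads set what can be said of each gene. Over the 15 libraries PAU6 drew 2893 reads, PAU2 2510, PAU5 1370 and PAU7 951, while PAU4 drew 134, PAU1 119 and PAU8 48. PAU8 had 0 reads in 5 libraries and at most 14 in any, and PAU1 had 0 in 2 and at most 22. PAU1 and PAU8 fell below the mean of 1 RPKM required for testing, so 5 of the 7 genes were tested, and PAU4 passed with a mean of 1.02. PAU4 passed only through libraries without XRN1 or UPF1, as it read at most 0.985 RPKM in each other library. Library totals implied by the values ran from 7160196 reads (swr1 upf1) to 57373504 (prp43 DAmP). Groups were checked by their altered genes: HTZ1, SWR1, XRN1 and NAM7 were at 0 to 0.29 RPKM in each library labelled as lacking them, and PRP43 was at 42.7 and 55.4 in the prp43 DAmP libraries against 84.8 to 157 elsewhere. Frames in the ribosomal DNA held 12.1 to 21.2% of the summed RPKM in htz1 1 and in swr1, swr1 xrn1, htz1 upf1 and swr1 upf1, and at most 3.41% in the others. The alpha-factor gene MF(ALPHA)1, which marks the alpha mating type, was at 1968 to 2942 RPKM in wild type 1 and in the 3 libraries without SWR1, and at most 4.72 elsewhere.

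Loss of XRN1 came with higher RNA of the interior PAU genes. PAU7 read 2.38 and 1.47 RPKM in wild type 1 and 3, 2.43 and 3.08 in the htz1 libraries and 3.05 in swr1. It read 28.6 and 32.9 in the xrn1 libraries, 34.2 in htz1 xrn1 and 17.5 in swr1 xrn1. The lowest library without XRN1 was thus above the highest of these 5 libraries, in which XRN1, UPF1 and PRP43 were intact. PAU2 showed the same separation, from 4.60 and 2.25 in the wild type, 3.94 and 3.45 in htz1 and 2.82 in swr1 to 14.6 and 16.8 in xrn1, 21.5 in htz1 xrn1 and 14.97 in swr1 xrn1. PAU5 read 2.35 and 1.01 in the wild type, 2.63 and 1.03 in htz1 and 0 in swr1. It reached 12.0 and 13.1 in xrn1, 42.2 in htz1 xrn1 and 3.75 in swr1 xrn1, again without overlap. Of the 7 members 3 (42.9%) were separated in this way, beside 63.2% of the 6495 genes tested. The 7 include PAU1 and PAU8, which failed the filter for testing, so the shares have unlike bases. The htz1 xrn1 library held the highest PAU5 value in the data.

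Averaged over the 3 states of H2A.Z deposition (4 libraries against 5), PAU7 rose by 3.09 ± 0.24 on the log2(RPKM + 1) scale (SE, adjusted p = 6.74e-06, limma). PAU5 rose by 2.85 ± 0.35 (adjusted p = 5.77e-05, limma) and PAU2 by 2.08 ± 0.20 (adjusted p = 1.78e-05, limma). PAU6 rose by 1.34 ± 0.38 (adjusted p = 0.00912, limma) and PAU4 by 0.74 ± 0.31 (adjusted p = 0.0475, limma). All 5 tested genes were called higher at an adjusted p under 0.05, where 74.1% of the 6495 genes tested were called higher, so the count itself is near the background. PAU4 had passed the filter only through libraries without XRN1 or UPF1, so its call adds no support. The median of all genes rose by 0.99 in this comparison, and relative to it PAU7 was higher by 2.10, PAU5 by 1.85, PAU2 by 1.09 and PAU6 by 0.34, while PAU4 was at -0.25. PAU7 and PAU5 had larger changes than 99.8 and 99.4% of all genes, PAU2 than 94.1%, PAU6 than 69.2% and PAU4 than 37.4%. With each library scaled to the same median log ratio, which brought the median of all genes to 0.09, PAU7 (2.26 ± 0.23), PAU5 (2.15 ± 0.31) and PAU2 (1.24 ± 0.15) were called higher, as were 33.7% of all genes. PAU6 (0.48 ± 0.37) and PAU4 (0.32 ± 0.29) were then not called. The PAU6 call also ended without the htz1 xrn1 library, which left it at 0.75. The PAU4 call ended in 13 of 21 alternatives, among them leaving out wild type 1, wild type 3, htz1 1, htz1 2, xrn1 2 or htz1 xrn1, with PAU4 at 0.49 to 0.79.

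PAU6 itself overlapped between the groups, with 16.9 and 10.6 RPKM in the wild type, 4.22 and 1.501 in htz1 and 5.29 in swr1 against 21.9 and 31.1 in xrn1, 21.7 in htz1 xrn1 and 7.51 in swr1 xrn1. In each state of H2A.Z the library or libraries without XRN1 were above the intact ones. The share of all genes that did so was not counted, and 63.2% of the 6495 tested met the stricter separation over all states. PAU4 ranged from 0.184 to 0.985 RPKM in the intact libraries, from 0.582 to 3.12 without XRN1 and from 0.511 to 3.43 without UPF1, and it was at 0.0960 in the prp43 DAmP library and at 0 in the one that also lacked HTZ1. PAU1 ranged from 0 to 0.552 in the intact libraries, from 0.317 to 1.67 without XRN1 and from 0.307 to 2.67 without UPF1. PAU8 ranged from 0 to 0.563, from 0.0529 to 1.06 and from 0 to 0.471 in the same order. These levels stand for at most 22 reads per library in PAU1 and 14 in PAU8, and their ranges overlapped.

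Loss of UPF1 came with higher RNA of PAU2, PAU5, PAU7 and PAU6. PAU2 read 22.5 and 27.8 RPKM in the upf1 libraries, 21.4 in htz1 upf1 and 18.5 in swr1 upf1, all above the 2.25 to 4.60 of the libraries with UPF1 and XRN1 intact. PAU7, the gene with the early stop codon, read 16.8 and 22.2 in upf1, 21.7 in htz1 upf1 and 16.6 in swr1 upf1, against at most 3.08 in the intact libraries. These were 2 of the 7 members (28.6%) with each library above the intact ones, beside 26.2% of the genes tested. The 7 again include PAU1 and PAU8, which were not tested, so the shares have unlike bases. PAU5 read 7.53 and 6.93 in upf1, 7.34 in htz1 upf1 and 1.14 in swr1 upf1. The swr1 upf1 value stood for 3 reads in the shallowest library (95% exact Poisson interval 0.234 to 3.32 RPKM) and lay inside the intact range of 0 to 2.63. PAU6 read 27.8 and 172.7 in upf1, 11.7 in htz1 upf1 and 16.2 in swr1 upf1, so that the 2 upf1 libraries lay further apart in PAU6 than the replicates of any other genotype.

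In the fit (4 libraries against 5), PAU7 rose by 2.59 ± 0.20 (adjusted p = 2.55e-05, limma) and PAU2 by 2.44 ± 0.20 (adjusted p = 3.51e-05, limma). PAU6 rose by 1.95 ± 0.49 (adjusted p = 0.0150, limma) and PAU5 by 1.52 ± 0.26 (adjusted p = 0.00205, limma). PAU4 was at 0.81 ± 0.34 (adjusted p = 0.116, limma). Thus 4 of 5 tested genes were called higher, beside 28.8% of all genes tested. The median of all genes was 0.23, and relative to it PAU7 was higher by 2.36, PAU2 by 2.21, PAU6 by 1.72 and PAU5 by 1.29. PAU7 had a larger change than 99.2% of all genes, PAU2 than 98.7%, PAU6 than 95.8% and PAU5 than 91.8%. With the libraries scaled, which moved the median of all genes to -0.10, the same 4 genes were called higher, beside 21.6% of all genes, with PAU7 at 2.33 ± 0.19 and PAU2 at 2.17 ± 0.17. Without the upf1 2 library PAU6 was still called, at 1.41. The call of PAU6 ended without wild type 3 (1.77) and without htz1 upf1 (2.01).

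The upf1 2 library differed from upf1 1 in more than PAU6. PAU6 held 73.3% of the summed 235.8 RPKM of the 7 genes there, against 35.0% of 79.3 RPKM in upf1 1. PAU18, its identical copy, read 161.9 RPKM. The nearest annotated gene, YNR075C-A, which lies 314 bases from PAU6, had its highest level of 77.3 RPKM in the same library. HEM13, an oxygen-repressed gene of heme synthesis, read 492 RPKM in upf1 2 and 64.5 in upf1 1, and UPC2 read 74.4 and 20.2. Other listed hypoxic genes went both ways. Among those higher in upf1 2 than in upf1 1 were ANB1 (54.7 and 16.7), HES1 (15.4 and 4.32), AUS1 (25.2 and 19.1) and AAC3 (20.9 and 16.9). In the same order, TIR1 (96.9 and 136.1) and FET4 (101.3 and 138.3) were among those lower, and DAN1 was level (0.771 and 0.762). ROX1, the gene of a repressor of the family, read 19.0 and 55.2. The part of such differences between the 2 libraries in the PAU6 result was not tested beyond leaving the library out.

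The xrn1 and upf1 effects on the 7 genes share their 5 control libraries, so the deletions were also set against each other directly (4 libraries each). PAU5 was higher without XRN1 than without UPF1 by 1.24 ± 0.28 (adjusted p = 0.00569, limma) and PAU7 by 0.50 ± 0.16 (adjusted p = 0.0287, limma). These were 2 of 5 genes called higher, where 53.2% of all genes were and the median of all genes was 0.51. Relative to that median PAU5 was at 0.73, PAU7 at -0.02 and PAU2 at -0.90. With the libraries scaled, PAU2 was the 1 gene of the 5 called, lower without XRN1 than without UPF1 by -0.96 ± 0.18 (adjusted p = 0.00350, limma), beside 29.5% of all genes called lower. PAU7 then turned to -0.09 ± 0.16, and PAU5 was at 0.70 ± 0.30 (adjusted p = 0.0830, limma). The order PAU5 over PAU7 over PAU2 was the same in both fits, and the sign of PAU7 was not. Scaling divides all genes of a library by the same factor, so it could hardly change this order. Differences between the genes were not tested. As deposited, the PAU7 call ended without xrn1 2, htz1 xrn1, upf1 1 or htz1 upf1 (0.39 to 0.45). PAU2 was called lower without htz1 xrn1 or htz1 upf1 (-0.52 in both).

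**Figure D2:**
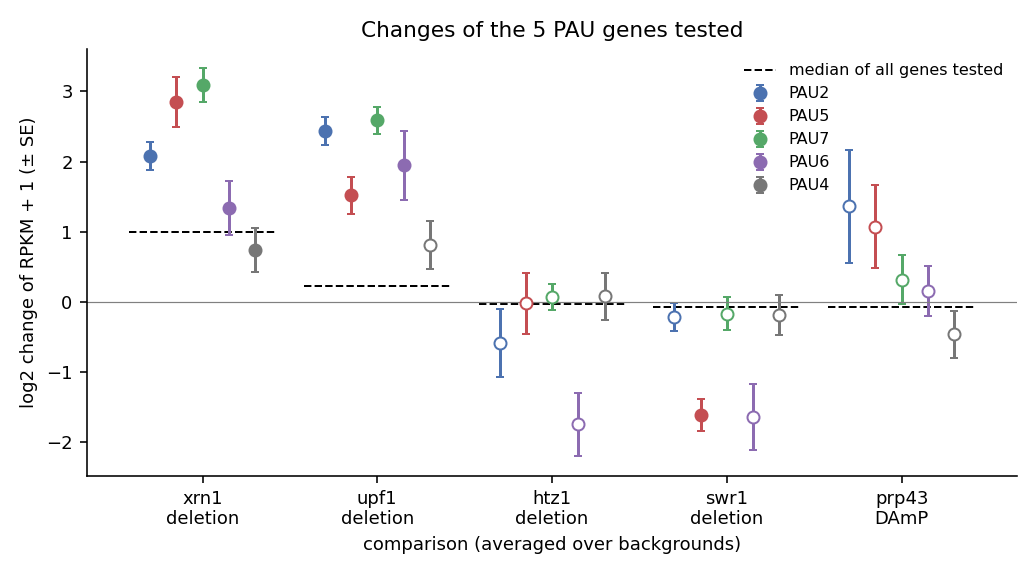
Log2 change of RPKM + 1 (± SE) of the 5 PAU genes tested, for each altered gene averaged over its backgrounds. Filled points passed an adjusted p of 0.05 and open points did not, and dashed lines give the median of all 6495 genes. PAU7, PAU5 and PAU2 stand above the dashed line for xrn1 and upf1, and PAU6 lies below 0 for htz1 and swr1 as an open point.

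Deletion of HTZ1 alone left the interior genes near the wild-type level. Against the wild-type values given above, PAU2 in the htz1 libraries was at 3.70 ± 0.34 RPKM against 3.42 ± 1.66 (SD, n = 2 each), PAU5 at 1.83 ± 1.13 against 1.68 ± 0.95, and PAU7 at 2.76 ± 0.46 against 1.93 ± 0.64. PAU6 was at 2.86 ± 1.92 against 13.8 ± 4.4, which was not called in this background alone (-2.00 ± 0.72, adjusted p = 0.985, limma). Averaged over 4 backgrounds (5 libraries against 7), 0 of 5 genes were called by limma, and 1 had an unadjusted p under 0.05. That gene was PAU6, at -1.74 ± 0.45 (adjusted p = 0.0708, limma; 0.0395 to 0.985 over the alternatives). PAU2 was at -0.59 ± 0.48, PAU5 at -0.01 ± 0.43 and PAU7 at 0.07 ± 0.18. Of all genes, 1.92% were called in either direction, and limma voom on recovered reads also called 0 of the 5.

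Deletion of SWR1 came with less PAU5 RNA in each background. PAU5 had 0 reads in swr1, where the wild type read 2.35 and 1.01 RPKM. It read 3.75 RPKM in swr1 xrn1 against 12.0 and 13.1 in xrn1, and 1.14 in swr1 upf1 against 7.53 and 6.93 in upf1. No library without SWR1 reached one of its controls, and the share of all genes with such a separation was not counted. The averaged fall (3 libraries against 6) was -1.61 ± 0.23 (adjusted p = 0.00802, limma), and PAU5 was 1 of 5 genes called lower, beside 3.53% of all genes. Only 0.816% of genes had a more negative change. The 3 libraries without SWR1 were also of the alpha mating type and rich in ribosomal DNA frames, as given above. Among the controls only wild type 1 was of the alpha type, so the parts of mating type and SWR1 loss cannot be told apart here. With mating type as a term PAU5 was at -2.01 and not called (adjusted p = 0.0868, limma; 0.00271 to 1.00 over the alternatives), and with the ribosomal DNA share as a term it was at -3.02 and not called. PAU6 was at -1.64 ± 0.47 (adjusted p = 0.0939, limma), while PAU2 (-0.21 ± 0.20) and PAU7 (-0.17 ± 0.24) were close to 0.

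Set against each other over 3 backgrounds (4 libraries against 3), the htz1 and swr1 deletions gave 0 called genes of 5 by limma and by limma voom, with 1 at an unadjusted p under 0.05 and 0.4% of all genes called. That gene was PAU5, higher in the htz1 libraries by 2.12 ± 0.40 (adjusted p = 0.173, limma; 0.0416 with MET17 detection, a marker of strain background, as a term). So the PAU5 fall was called for swr1 and not for htz1, and the difference between them did not pass the test. The 3 swr1 libraries were all of the alpha mating type and the 4 htz1 libraries were not. Mating type and the deletions therefore cannot be told apart in this contrast. All 4 alpha and all 6 a-type marker genes were among the 26 genes called.

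The prp43 DAmP library had the highest PAU2 level in the data. PAU2 read 43.2 RPKM there, from 899 reads, and 1.99 in prp43 DAmP with the htz1 deletion, which was its lowest value in any library. PAU5 read 12.2 and 1.37 RPKM, PAU6 16.4 and 2.72, and PAU7 4.36 and 2.15 in the same order. Thus the library with the htz1 deletion was the lower for each of the 4 genes. With 1 library per genotype there is no replicate of either. Averaged over the pair (2 libraries against 4), 0 of 5 genes were called by limma or by limma voom, with 0 at an unadjusted p under 0.05. Of all genes 0% were called by either tool, and 156 had an unadjusted p under 0.05. PAU2 was at 1.36 ± 0.81, which ran from -0.65 without the prp43 DAmP library to 3.37 without prp43 DAmP htz1.

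Taken alone against the wild type, prp43 DAmP had PAU2 higher by 3.37 ± 0.38 (adjusted p = 0.00620, limma), beside 0.431% of all genes called higher. This value assumes that the lone library varies like the replicated genotypes. The prp43 DAmP library also differed from both wild-type libraries in strain markers. MET17 read 0 RPKM there against 260.2 and 195.7, and LYS2 read 63.9 against 0.0639 and 0.0118. Strain background and prp43 DAmP therefore cannot be told apart in this comparison. Of the controls in the averaged fit, only htz1 2 had the markers of the prp43 DAmP libraries (MET17 0.0816, LYS2 44.4). PAU5 was higher by 2.35 ± 0.47 and not called (adjusted p = 0.129, limma).

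The difference between the htz1 effect in prp43 DAmP and in the wild type was tested as an interaction in a model of all 15 libraries with 1 mean per genotype. For PAU2 it was -4.02 ± 0.54 (adjusted p = 0.0387, limma), beside 0.154% of all genes called lower. The call rested on the settings, with adjusted p from 0.0125 to 0.125 over the alternatives. PAU5 was at -2.54 ± 0.67 (adjusted p = 0.815, limma). Between backgrounds, the htz1 effect on PAU2 was higher in xrn1 than in prp43 DAmP by 4.32 ± 0.58 (adjusted p = 0.0257, limma; 0.00890 to 0.122 over the alternatives), beside 0.277% of all genes called higher. PAU5 stood at 4.15 ± 0.72 in that contrast (adjusted p = 0.0799, limma). The htz1 effect in upf1 against that in prp43 DAmP gave 0 called members of 5, with 2 at an unadjusted p under 0.05, beside 0.123% of all genes called, with PAU2 at 3.67 ± 0.58 (adjusted p = 0.0824, limma). For htz1 by xrn1, htz1 by upf1, swr1 by xrn1, swr1 by upf1, and htz1 by xrn1 against upf1, 0 members and 0% of all genes were called by limma or by limma voom. In these 5 contrasts 75 to 153 genes, and 0 to 2 of the 5 members, had an unadjusted p under 0.05.

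**Figure D3:**
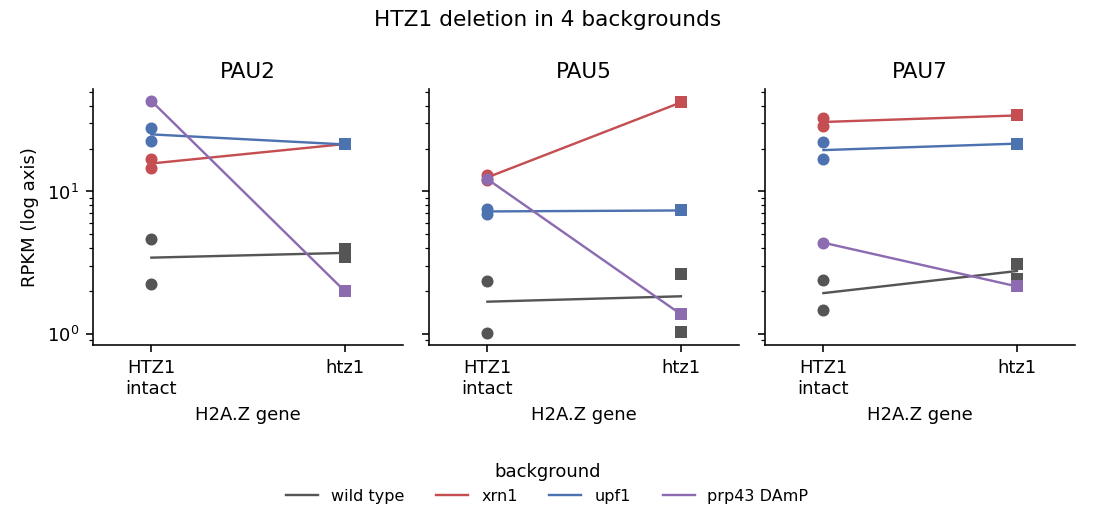
RPKM (log axis) of PAU2, PAU5 and PAU7 with HTZ1 intact (circles) and deleted (squares) in 4 backgrounds, 1 point per library, with lines between group means. In prp43 DAmP, PAU2 falls from 43.2 to 1.99 RPKM, and in xrn1, PAU5 goes from 12.0 and 13.1 to 42.2.

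Of the 17 other PAU genes, 7 passed the filter, and the 10 that failed were at most 5.81 RPKM in any library. Without XRN1, 6 of the 7 were called higher and 0 lower, and 5 were called higher after scaling, beside 74.1 and 33.7% of all genes. PAU11 and PAU13 had passed the filter only through libraries without XRN1 or UPF1. Their median change was 1.69 against 0.99 for all genes. PAU17 and PAU23, the other interior copies, rose by 2.00 ± 0.25 and 1.69 ± 0.26, which is 1.00 and 0.70 above the median of all genes. PAU12 and PAU24, which lie 10.3 and 3.8 kb from an end, rose by 2.19 ± 0.30 and 1.89 ± 0.34. The rise was thus not particular to the interior copies. Without UPF1, 6 of the 7 were again called higher, with 5 after scaling, beside 28.8 and 21.6% of all genes. Their median was 1.40 against 0.23. PAU23 rose by 1.96 ± 0.19, PAU17 by 1.40 ± 0.21, PAU12 by 1.73 ± 0.26 and PAU18 by 2.00 ± 0.47. PAU18 has the coding sequence of PAU6, so its values are not separate from those of that member. In the direct comparison PAU17 was called higher without XRN1 (0.58 ± 0.16, 0.07 above the median of all genes). As deposited, 0 of the 7 were called by limma for htz1, swr1 or prp43 DAmP, with 1, 5 and 1 at an unadjusted p under 0.05. After scaling 1 was called for htz1, PAU18, at -1.82 ± 0.46 (adjusted p = 0.0459, limma).

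**Figure D4:**
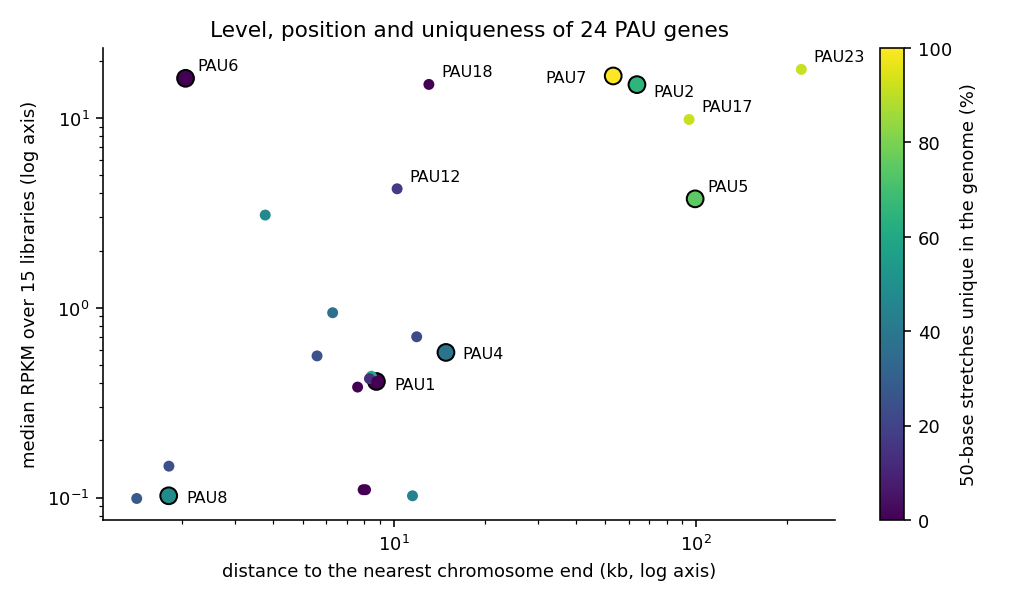
Median RPKM over the 15 libraries (log axis) against distance to the nearest chromosome end (kb, log axis) for the 24 PAU genes, coloured by the share of 50-base stretches unique in the genome, with the 7 genes of this report outlined. The 5 interior genes have medians of 3.75 to 18.0 RPKM and unique shares of 65.0 to 100%, while the 19 genes near an end range from 0.0990 to 16.2 RPKM.

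Across the family, the 5 genes over 20 kb from an end (PAU2, PAU5, PAU7, PAU17 and PAU23) had a median level of 14.97 RPKM, and the 19 nearer ones a median of 0.423 RPKM. The interior genes were also the more unique ones, with a median of 91.4% unique stretches against 22.0%. How reads that fit several copies were assigned is not given in the sources used here, so position and read sharing cannot be told apart as sources of this difference in level.

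The DAN and TIR wall proteins are the relatives of the seripauperins. Without XRN1, 3 of 9 of their genes were called higher and 2 lower, or 2 and 3 after scaling. Of all genes, 74.1% were called higher, or 33.7% after scaling. DAN4 rose by 1.54 and TIR2 by 0.75 relative to the median of all genes, while CWP2, an abundant wall mannoprotein, was lower by 1.89 on that scale (-0.89 ± 0.18 as fitted). Without UPF1, 3 were called higher and 1 lower in both fits, with TIR4 higher by 1.92, DAN4 by 1.68 and TIR2 by 1.64 relative to the median. The share of all genes called higher was 28.8%, or 21.6% after scaling. In the prp43 DAmP library that was high in PAU2, 6 of the 9 listed genes were above their highest intact value, while TIP1 (74.3 RPKM), CWP1 (146.6) and CWP2 (4305) were below their lowest. The share of all genes outside their intact range in this library was not counted. TIR1, a wall protein of cold and low-oxygen cells, read 4410 RPKM there against 208.6 with the htz1 deletion and 54.98 to 319 in the intact libraries. DAN1, an anaerobic wall protein, read 314.2 RPKM against 7.17 and at most 13.5. In the interaction of htz1 with prp43 DAmP, 3 of the 9 were called lower, namely DAN1 (-7.25 ± 0.88), TIR1 (-5.03 ± 0.62) and DAN4 (-6.22 ± 0.85), and 2 after scaling. Of all genes, 0.154% were called lower as deposited. The htz1 xrn1 library, highest in PAU5, read 99.9 RPKM of DAN1 against 0.385 to 2.98 in the other libraries without XRN1.

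Of 8 hypoxic regulators, 7 were called higher without XRN1, against 2 higher and 1 lower after scaling. Beside them, 74.1% of all genes were called higher, or 33.7% after scaling, so the count is near the background. UPC2 rose by 2.58 ± 0.22, or 1.58 relative to the median of all genes, and read 92.9 to 208.6 RPKM without XRN1 against 18.3 to 27.3 in the intact libraries. ROX1 rose by 0.68, SUT1, a factor for sterol uptake, by 0.43 and MOT3 by 0.33 relative to the median. Without UPF1, 0 of 8 were called by limma, 0 at an unadjusted p under 0.05, and after scaling 2 were called lower. UPC2 then read 19.5 to 74.4 RPKM, with upf1 2 the highest. Of 9 hypoxic and sterol uptake genes, 5 were called higher without XRN1 (3 higher and 1 lower after scaling) and 4 without UPF1 (4 after scaling). Of all genes, 74.1% were called higher without XRN1 (33.7% after scaling) and 28.8% without UPF1 (21.6% after scaling). The sterol importer gene PDR11 rose by 0.80 and 0.84 relative to the 2 medians, and FET4, a low-affinity iron transporter, by 0.64 and 1.32. AAC3, the anaerobic ADP/ATP carrier, rose by 1.08 without UPF1. Among these lists, TIP1 (1.48 ± 0.29) was the 1 call for htz1. AUS1, a sterol importer (-1.10 ± 0.26), was the 1 call for swr1, which ended on scaling. DAN1 (3.62 ± 0.36) was the 1 call between htz1 and swr1, where mating type cannot be told apart from the deletions.

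The 7 genes moved together unevenly. Over the 15 libraries, which share genotype and depth, Pearson's r of log2(RPKM + 1) was 0.78 for PAU2 with PAU7, 0.75 for PAU2 with PAU5 and 0.72 for PAU5 with PAU7. It was 0.87 for PAU1 with PAU6, which share 114 of their 50-base stretches, and 0.05 for PAU6 with PAU8. Among 6192 other genes averaging 5 RPKM or more, the 5 most like the mean profile of the 7 were PMT5, an O-mannosyltransferase of secreted proteins (r = 0.97), HXT11, a hexose transporter (0.96), the isomaltase IMA1 (0.96), YPL278C (0.95) and IMA3 (0.95). The neighbours of the interior genes followed them to unlike degrees. RML2 beside PAU2 had r = -0.11 with it and TCA17 on the other side 0.72, while DFP1 beside PAU7 had 0.96 and CDC15 0.60. GAT1 and YFL019C beside PAU5 had 0.64 and 0.87, and both were highest in htz1 xrn1, the library with the highest PAU5.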

How the data were processed

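The authors deposited 1 table of RPKM (gene length and library size divided out) for 15 libraries. The submitters' processing notes name CASAVA, STAR 2.4.0 and the sacCer3 build. The read counter, annotation, strand setting and handling of reads that fit several places were not given in the sources used here. Not used were 1 column that matched no sample and 3 rows that name no gene, with 0.0203 to 0.129% of a library's summed RPKM. The deposited RPKM multiplied by gene length gave whole reads, within 0.1 read, for 99.8 to 100% of values below 50 reads.

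Values as deposited were transformed to log2(RPKM + 1), which understates changes of low genes, and fitted with limma 3.58.1 (R 4.3.3, moderated with a trend on mean level). The 6495 genes averaging 1 RPKM or more entered, and p-values were adjusted over them by Benjamini-Hochberg, with calls under 0.05. Single deletions were averaged over backgrounds with background as a term, and interactions came from a model with 1 mean per genotype and 4 residual degrees of freedom. Limma voom on recovered reads (5805 genes) called 4805 genes for xrn1 and 1846 for upf1. Sequences, positions and promoters came from the RefSeq R64 genome, in which the 24 PAU genes were matched by systematic name. All 7 members were reported in each comparison, and of each other list up to 4 called genes, smallest p first. The most similar genes and nearest neighbours were also named. The members and gene lists were chosen with earlier results of these data known. Alternatives were other pseudocounts, filters and scaling, a replicate block, terms for mating type, MET17 or ribosomal DNA share, single backgrounds, an additive model and leaving out each library. Fits were tested on simulated data. Intervals cover counting error only.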

Additional observations from a re-analysis of the deposited data

Results flagged for a closer look

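The htz1 effect on PAU2 differed between backgrounds in 2 tested contrasts. It was lower in prp43 DAmP than in the otherwise wild-type background by -4.02 on the log2(RPKM + 1) scale (adjusted p = 0.0387, limma interaction), with 1 of 1 prp43 DAmP htz1 library below its control. It was higher in xrn1 than in prp43 DAmP by 4.32 (adjusted p = 0.0257, limma interaction), a contrast chosen after seeing the data. Both rest on the lone prp43 DAmP library, in which PAU2 read 43.2 RPKM and TIR1 4410 RPKM, and on the lone prp43 DAmP htz1 library, in which they read 1.99 and 208.6. Neither library could be left out, and the part of other differences between the 2 cultures or preparations was not tested.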

How the results depend on the processing

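Over 75 changes of single members and 1150 alternative values, 1092 stayed on the same side of the threshold, 41 lost a call, 16 gained one and 1 reversed: PAU7 in xrn1 against upf1, at -0.0914 with the libraries scaled. Of the 1092, 1018 also kept their sign and 74, none of them called, did not, among them PAU6 for swr1 (1.24 with the ribosomal DNA term). Counts of members called moved as follows. For xrn1 the 5 calls became 3 at a mean of at least 10 RPKM (which left 3 members to test), with scaling, in the wild-type background alone and with the replicate block, 4 with a pseudocount of 5, in the additive model and with the ribosomal DNA or mating-type term, 7 of 7 without a filter, and 3 to 5 with 1 library left out. For upf1 the 4 calls became 2 with the replicate block, 3 at a mean of 10 RPKM and in the wild-type background alone, 5 without a filter and 3 to 4 with 1 library left out. For xrn1 against upf1 the 2 calls became 1 at a mean of 10 RPKM, with scaling and with limma voom, and 1 to 2 with 1 library left out. They became 3 with the MET17 term, which added PAU2 as lower (-0.39), and 3 with the ribosomal DNA term, which added PAU2 (-0.61) and PAU4 (-1.02) as lower and ended the PAU7 call (0.42). The htz1 count rose from 0 to 1 in the additive model (PAU6). The swr1 count of 1 became 2 without a filter and 0 at a mean of 10 RPKM (PAU5 was not tested), with terms for ribosomal DNA, mating type or MET17 and in the wild-type background alone, and 1 to 2 with 1 library left out. It was 2 without upf1 1 and without upf1 2. For htz1 against swr1 the MET17 term gave 1 call, and for prp43 DAmP the wild-type background alone gave 1. For htz1 by prp43 DAmP the 1 call became 0 with a pseudocount of 0.1, no filter, voom or the replicate block, and 0 to 1 with 1 library left out (0 without htz1 1). For htz1 by xrn1 against prp43 DAmP it became 2 with a pseudocount of 5 or scaling, 0 without a filter and 0 without either xrn1 library. For htz1 by upf1 against prp43 DAmP the count of 0 became 1 with a pseudocount of 5 or scaling. The cause of these moves was not tested except where stated.

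The replicate block ended the PAU4 and PAU6 calls for xrn1 (0.47 and 0.60), the PAU5 and PAU6 calls for upf1 (1.33 and 1.53) and the PAU2 interaction of htz1 with prp43 DAmP (-3.57), and changed no other count of members. Whether replicate numbers pair the libraries could not be decided with 2 libraries per genotype. Deviations from the genotype means correlated at -0.27 between htz1 and xrn1, 0.13 between htz1 and upf1 and 0.19 between xrn1 and upf1. The block could not be fitted for swr1, for prp43 DAmP and for several interactions, nor could the mating-type term for htz1 against swr1 or a fit without the lone library of an interaction. Depth limits PAU1, PAU4 and PAU8 most, with 119, 134 and 48 reads over all libraries.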
